A study of Drosophila melanogaster with 21 samples.

Results

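The sex determination cascade of Drosophila is described here through 7 genes, Sxl, tra, tra2, dsx, fru, snf and Unr. They were taken by gene ID from the 17558 gene IDs in the count tables, by their known place in the cascade. Earlier results of these data were known when they and the gene lists below were chosen. Of the 7, 6 had enough reads to be tested and dsx did not. The measure is the number of reads per gene, which does not separate the sex-specific splice forms through which the cascade works.

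Sex in Drosophila is set by a chain of splicing decisions. The RNA-binding protein Sex-lethal (Sxl) is the switch at its head. In females it keeps its own pre-mRNA in the productive form, directs the splicing of transformer (tra) and, with the cofactor Unr, blocks translation of msl-2, a subunit of the male dosage compensation complex. Tra acts with Transformer 2 (tra2) on the pre-mRNAs of doublesex (dsx) and fruitless (fru), transcription factors that carry out somatic and neural sexual differentiation. Sans fille (snf) is a shared protein of the U1 and U2 small nuclear ribonucleoproteins that Sxl needs to control its own splicing. The mark N6-methyladenosine (m6A) on Sxl pre-mRNA, its writer complex and its nuclear reader are known to assist that splicing in flies.

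Poly(A) RNA came from S2R+, a Drosophila cell line of embryonic origin with macrophage-like traits, in 7 groups of 3 libraries. The groups were control cells and cells depleted of Ime4 (Mettl3) or CG7818 (Mettl14), the methyltransferase subunits of the m6A writer, of Ime4 and CG7818 together (the double depletion), of Fl2d, a further writer subunit, of CG6422 (Ythdf), a cytoplasmic m6A reader, or of YT521 (Ythdc1), the nuclear m6A reader. The series title names sex determination among its subjects, so the comparisons ask how these genes' transcripts stood when a writer or reader was depleted. The sources used here do not give the agent of depletion or what the control cells received. The labels also do not say whether the 3 libraries of a group came from separate cultures, so the p-values below measure a spread between samples that may be technical.

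Gene counts ranged from 20214568 to 28296393 per library, and 8360 genes were tested. Levels are CPM, which are read counts scaled to the library's depth, and a change is a log2 fold change with its standard error (SE). The words rose and fell are used only where edgeR's quasi-likelihood test gave an adjusted p under 0.05 over all genes tested. The targeted transcripts were at 8.66% to 25.8% of their control level in the libraries labelled as their depletions. Mitochondrial mt:lrRNA was low in Fl2d replicate 1 and in YT521 replicate 2, at 1.93% and 2.89% of gene counts, against 5.61% to 8.62% in the other libraries. Part of the results that rest on either are also given without both, and the rest are not. Of 10 plasmatocyte markers in the count tables, which are genes of fly macrophages, srp, Pxn, crq and ush were each at 71.1 CPM or more in every library, while NimC1, eater and gcm stayed under 1 CPM. In bulk RNA, fewer cells of a type and less RNA per cell cannot be told apart.

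Lines of this kind are known for a male mode of dosage compensation. Of the genes that mark it, roX2, an RNA of the male dosage compensation complex, was at 38.2 to 141 CPM and msl-2 at 40.2 to 48.8 CPM over the 21 libraries. The partner RNA roX1 lay between 0 and 0.247 CPM. Over the 5 genes of that list the summed level was 295 to 313 CPM in the control, 217 to 279 CPM in the Fl2d depletion and 278 to 341 CPM in the other depletions. The part of these levels in the results below was not tested. Germline genes bam, at 74.9 to 99.2 CPM, and aub, at 115.1 to 150.1 CPM, had reads in every library, while otu and ovo reached at most 1.83 and 1.03 CPM. The listed germline genes vas and nos matched no gene ID in the count tables. The neuronal gene elav also had reads in every library, at up to 23.2 CPM, while Syt1, nSyb and brp of neurons reached at most 0.572, 0.577 and 0.273 CPM. The part of these levels in the results was not tested either. The muscle markers reached at most 1.43 CPM (Mlc2), those of the fat body at most 0.212 CPM (Fbp2), and Lsp1alpha, a larval storage protein of the fat body, had 0 counts throughout.

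The switch gene Sxl (FBgn0264270) lies on X (7074550 to 7098053, minus strand, build BDGP6.54, 25 annotated transcripts). It fell in the CG7818, Fl2d and YT521 depletions, to between 65.6% and 71.1% of the control. In the 3 control libraries it stood at 11.8, 11.3 and 11.1 CPM. The CG7818 depletion gave 7.38, 7.14 and 8.50 CPM, the Fl2d depletion 6.07, 9.18 and 7.19 CPM, and the YT521 depletion 8.90, 6.63 and 8.79 CPM. All 9 of these libraries lay below every control library, and the Fl2d libraries were the most spread. The log2 fold changes were −0.57 for CG7818 (SE 0.130, adjusted p = 0.0181), −0.61 for Fl2d (SE 0.132, adjusted p = 9.68e-04) and −0.49 for YT521 (SE 0.126, adjusted p = 0.0206). Of all genes tested, 2.32% were called in the CG7818, 41.3% in the Fl2d and 6.52% in the YT521 comparison, and 1.22%, 19.9% and 3.25% were called lower. All libraries lay below all controls in 10.1%, 21.8% and 13.7% of genes, respectively. Sxl was thus among a small share of genes in the CG7818 and YT521 depletions, and among many in the Fl2d depletion.

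In the remaining depletions Sxl did not pass the test. The double depletion gave 8.43, 8.07 and 9.69 CPM, all below every control library (a log2 fold change of −0.39, SE 0.128, adjusted p = 0.0533, 11.4% of all genes called and 17.1% below in all libraries). Ime4 libraries stood at 11.2, 9.06 and 9.72 CPM, with the highest inside the control range (−0.18, SE 0.125, adjusted p = 0.478, 3.72% of all genes called). CG6422 libraries stood at 10.9, 9.52 and 10.98 CPM, just below the control (−0.13, SE 0.125, adjusted p = 0.514, 19.1% of all genes called and 18.5% below in all libraries). The 95% confidence interval for CG6422 ran from −0.39 to 0.13 and overlapped that for YT521, from −0.76 to −0.23. The direct edgeR comparison of YT521 with CG6422 did not call Sxl (−0.37, adjusted p = 0.064). With the exon length correction described below the CG6422 value was 0.05 (adjusted p = 0.817). Of the 18 depletion libraries 17 were below the lowest control library and 0 above the highest, and all 6 comparisons share those 3 controls.

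The fall of Sxl in the Fl2d depletion held in all 13 alternatives, with log2 fold changes from −0.78 to −0.48. Without the pair of libraries low in mt:lrRNA it was −0.49 (adjusted p = 0.00293). The CG7818 and YT521 calls rested on single libraries. For CG7818 the adjusted p was 0.0817 without its replicate 1, 0.0887 without its replicate 2, and 0.0732 and 0.0649 without control replicate 1 or 2. For YT521 it was 0.111 without its replicate 2, and 0.0662 and 0.0694 without control replicate 1 or 2, though 0.0454 when both libraries low in mt:lrRNA were left out. The Sxl value of the double depletion passed in 5 of 12 alternatives (adjusted p 0.00603 to 0.193 over all of them).

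**Figure D1:**
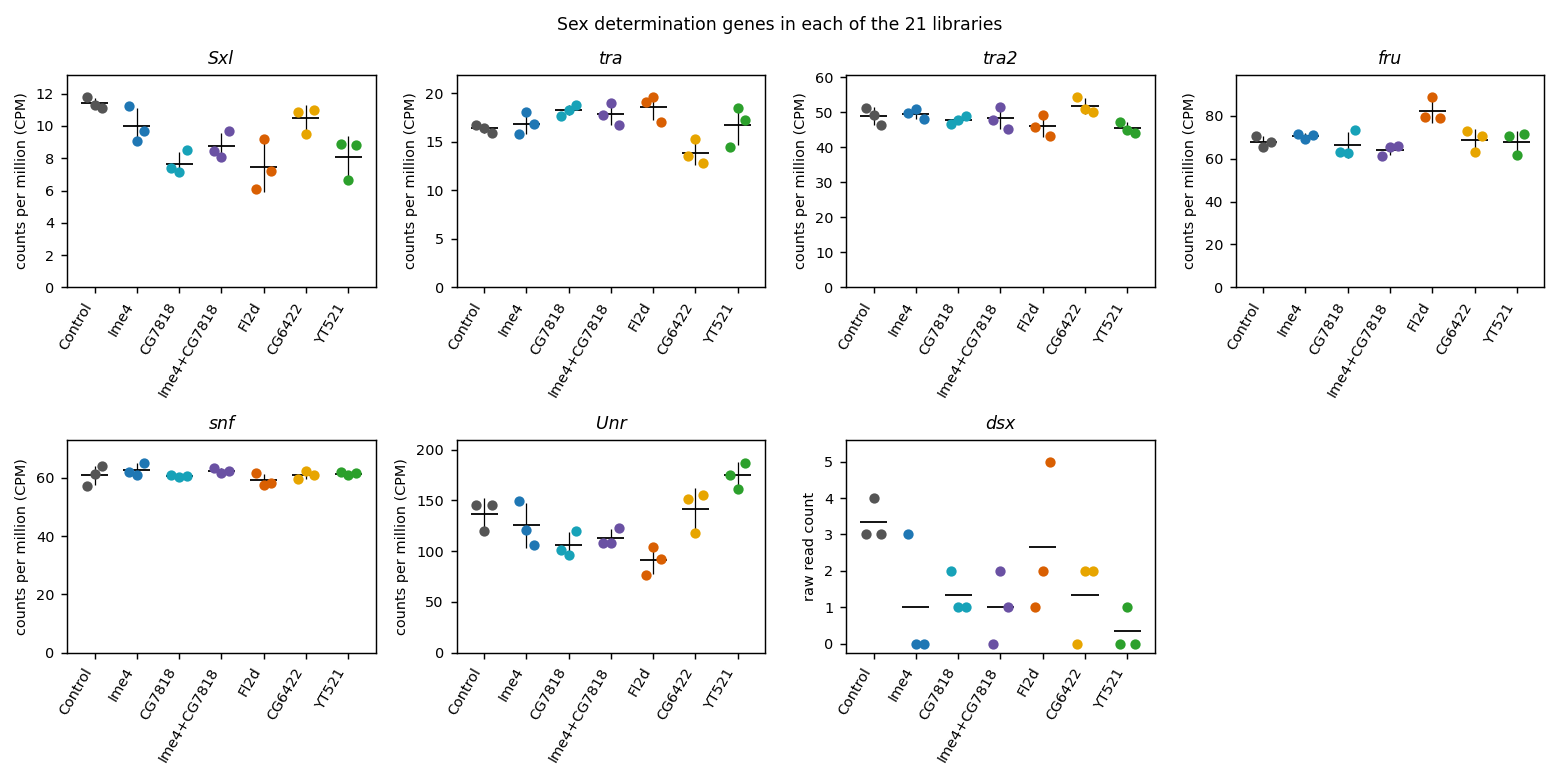
Level of each gene in each of the 21 libraries, in CPM (raw read counts for dsx), by group. Points are libraries, horizontal bars group means and vertical lines ± SD (n = 3); Sxl lies below all 3 control libraries in 17 of 18 depletion libraries, while Unr is lowest in Fl2d and highest in YT521.

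Counting precision for Sxl was lower than for most of the other members. Its raw counts ran from 127 to 325 per library, against 860 to 1415 for tra2 and 1607 to 5217 for Unr. The fitted biological coefficient of variation, which measures spread beyond counting error, was 8.79% for Sxl. It ran from 3.57% for snf to 10.8% for Unr among the tested members. Annotated exons of Sxl shared 117 bases with mir-4956, which had 0 counts in every library.

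Transformer, tra, is the direct splicing target of Sxl (FBgn0003741, chromosome 3L, 16590059 to 16591050, minus strand, 2 annotated transcripts). None of the 6 depletions changed it past the threshold. Control libraries stood at 16.7, 16.4 and 15.9 CPM. The values nearest to a call were those of CG6422, at 13.5, 15.3 and 12.8 CPM, all below every control library (a log2 fold change of −0.24, SE 0.089, adjusted p = 0.0671). In CG6422, 18.5% of all genes lay below every control library and 19.1% were called. Fl2d libraries, at 19.1, 19.6 and 16.99 CPM, and CG7818 libraries, at 17.7, 18.3 and 18.8 CPM, were all above the control (0.18, adjusted p = 0.101, and 0.16, adjusted p = 0.405), as were 24% and 12.7% of all genes. Over the depletions as a set, 12 of 18 libraries lay above the highest control library and 5 below the lowest. The CG6422 value passed under the replicate block (adjusted p = 0.0341), under a correction for exon length (0.0203) and without CG6422 replicate 2 (0.0421). Exons of tra share 74 bases, 8.58% of their length, with l(3)73Ah on the opposite strand. That gene had a median of 889 counts per library against 405 for tra, and the sources used here do not say whether reads were counted by strand, so tra levels are uncertain to that extent.

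Transformer 2, tra2, the partner of Tra in splicing enhancement (FBgn0003742, chromosome 2R, 14602004 to 14604337, minus strand), varied little. Its group means ranged from 45.5 ± 1.7 CPM in the YT521 depletion to 51.7 ± 2.2 CPM in the CG6422 depletion (SD, n = 3), around a control of 49.0 ± 2.5 CPM. No depletion changed it past the threshold (adjusted p from 0.249 to 0.920). The 95% confidence intervals against the control all lay between −0.23 and 0.20 on the log2 scale.

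The terminal regulator dsx, which encodes the male and female forms of a DM domain transcription factor (FBgn0000504, chromosome 3R, 7924323 to 7967408, minus strand), was barely detected. It had 33 reads in all 21 libraries together, or 0.0678 CPM with a 95% Poisson interval of 0.0467 to 0.0952 CPM that covers counting error only. Control libraries held 3, 4 and 3 reads. The Ime4 libraries held 3, 0 and 0, the CG7818 libraries 2, 1 and 1, the double depletion 0, 2 and 1, the Fl2d libraries 1, 2 and 5, the CG6422 libraries 0, 2 and 2, and the YT521 libraries 0, 1 and 0. All controls had 3 or more reads, a number reached in 2 of the 18 depletion libraries. Exact permutation tests of CPM over the libraries (two-sided) gave p = 0.1 for each depletion but Fl2d, where p = 1, and 0.1 is the smallest p that 3 against 3 libraries can give. This permutation test thus could not call a difference in dsx with 3 libraries per group, whatever the depth. The edgeR test was not run on dsx because its counts were under the filter. Summed over each group, the control had 10 reads, or 0.140 CPM with a 95% Poisson interval of 0.0670 to 0.257, and the YT521 depletion 1 read, with an upper bound of 0.0697 CPM. Exons of dsx share 169 bases with lds on the opposite strand, which had a median of 4041 counts, and the origin of the few reads at dsx was not tested.

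The other terminal gene, fru, encodes BTB zinc finger transcription factors, of which the forms from its distal promoter are spliced by sex in neurons (FBgn0004652, chromosome 3R, 18414273 to 18545586, minus strand, 15 annotated transcripts). It was well expressed and rose in the Fl2d depletion, to 121% of the control. Control libraries stood at 70.4, 65.3 and 67.8 CPM and Fl2d libraries at 79.2, 88.5 and 79.1 CPM. Every Fl2d library lay above every control library, as in 24% of all genes, with replicate 2 the highest of all 21. The log2 fold change was 0.28 (SE 0.069, adjusted p = 0.003), and 0.30 (adjusted p = 0.00202) without the libraries low in mt:lrRNA. The call held in all 13 alternatives. Together with Sxl and Unr it made 3 members called of 6 tested, against 41.3% of all genes in that comparison, so their number was near the background. The counts do not separate the promoters of fru, and no other gene's annotated exons overlap its own.

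None of the other depletions changed fru past the threshold. The Ime4 libraries stood at 71.5, 69.1 and 71.1 CPM, the CG7818 libraries at 63.3, 62.6 and 73.5 CPM and the double depletion at 61.2, 65.4 and 65.9 CPM. CG6422 libraries stood at 72.7, 63.3 and 70.6 CPM and YT521 libraries at 70.4, 61.5 and 71.3 CPM. Each of these groups overlapped the control, with adjusted p from 0.523 to 0.987. The exons of fru add up to 18433 bases, and the median log2 fold change of the 372 tested genes with at least 8 kb of exon was −0.13 in the Fl2d and −0.16 in the CG6422 depletion. With a correction for exon length, added after the values were seen, fru was at 0.46 in Fl2d (adjusted p = 9.79e-07) and also passed in CG6422 (0.27, adjusted p = 0.00283, against 0.02 without it).

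The cofactor snf (FBgn0003449, X, 5309242 to 5310501, plus strand, 1 annotated transcript) was the steadiest member. Its group means spanned 59.2 ± 2.3 CPM in Fl2d to 62.6 ± 2.3 CPM in Ime4, around 60.9 ± 3.3 CPM in the control (SD, n = 3). The range of its 7 group means was 0.08 on the log2 scale, narrower than in all but 0.92% of the genes tested. No comparison called it, and its 95% confidence intervals against the control all lay between −0.14 and 0.14. A fall in snf transcripts as large as that of Sxl in the Fl2d, CG7818 or YT521 depletion lay outside these intervals. Whether snf has a part in the changes of Sxl was not tested.

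Unr encodes a cold-shock domain RNA-binding protein that Sxl recruits to msl-2 mRNA (FBgn0263352, chromosome 3L, 8432322 to 8442381, minus strand, 5 annotated transcripts). It fell in the Fl2d depletion to 66.6% of the control. Control libraries stood at 145.8, 119.4 and 145.6 CPM and Fl2d libraries at 76.8, 104.3 and 92.5 CPM. Every Fl2d library lay below every control library, as in 21.8% of all genes, and 19.9% of all genes were called lower in Fl2d. Replicate 1 of Fl2d was the lowest of all 21 libraries. The log2 fold change was −0.59 (SE 0.128, adjusted p = 0.00103), held in all 13 alternatives, and was −0.48 (adjusted p = 0.00612) without the libraries low in mt:lrRNA.

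In the YT521 depletion Unr stood at 175.0, 161.6 and 187.2 CPM, above every control library, as were 13.3% of all genes, yet this did not pass the test (log2 fold change 0.35, SE 0.125, adjusted p = 0.0974). That value passed in 3 of 13 alternatives, with adjusted p from 2.66e-04 with no filter on low counts to 0.355. The CG7818 libraries, at 100.8, 96.0 and 120.3 CPM, and the double depletion, at 107.6, 108.5 and 123.1 CPM, were mostly under the control but overlapped it (−0.37, adjusted p = 0.141, and −0.28, adjusted p = 0.181). Ime4 libraries, at 149.8, 120.6 and 106.2 CPM, and CG6422 libraries, at 151.4, 117.4 and 155.7 CPM, spread widely around it (−0.12, adjusted p = 0.678, and 0.05, adjusted p = 0.834). Unr had the largest fitted biological coefficient of variation of the 6 tested members, 10.8%, and control replicate 2 was well below its 2 companions.

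**Figure D2:**
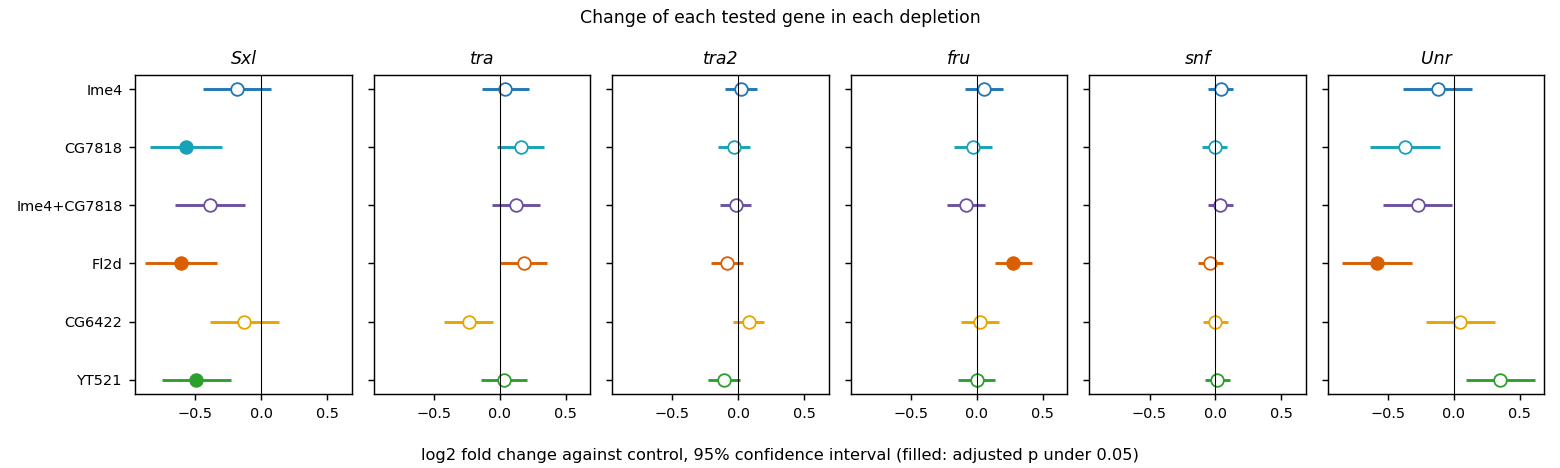
Log2 fold change of each tested gene against the control in the 6 depletions, with 95% confidence intervals; filled points have an adjusted p under 0.05. Filled points are Sxl in CG7818, Fl2d and YT521, fru in Fl2d and Unr in Fl2d, and snf and tra2 stay near 0.

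Depletions were also compared directly, without the control. Unr gave the largest difference among the members. It was lower in the Fl2d than in the YT521 depletion (log2 fold change −0.94, SE 0.128, adjusted p = 6.88e-06). Against the double depletion, the YT521 depletion was higher (0.63, SE 0.126, adjusted p = 0.0023). The lowest YT521 library, at 161.6 CPM, was above the highest Fl2d library, at 104.3 CPM, and the highest double depletion library, at 123.1 CPM. Without the libraries low in mt:lrRNA these values were −0.89 (adjusted p = 5.37e-05) and 0.68 (adjusted p = 9.52e-04). In all, 2 members were called between Fl2d and YT521, against 39% of all genes, and 1 between YT521 and the double depletion, against 10.7%. Groups had no overlap in 40.8% and 32.9% of all genes in these comparisons.

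The other member called between Fl2d and YT521 was fru, higher in Fl2d (0.28, SE 0.069, adjusted p = 0.00281). It was the 1 member called between Fl2d and the double depletion, where 36.9% of all genes were called (0.36, SE 0.070, adjusted p = 4.16e-04). Each Fl2d library of fru was above each YT521 and each double depletion library. Between Fl2d and the double depletion 45.2% of all genes had no overlap. For Sxl, levels in Fl2d and YT521 (−0.11, SE 0.136, adjusted p = 0.535) and in Fl2d and the double depletion (−0.22, SE 0.137, adjusted p = 0.213) were not separated, and their libraries overlapped.

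Between the methyltransferase subunits, 0 members were called by edgeR in CG7818 against Ime4 and 1 had an unadjusted p under 0.05, where 0.502% of all genes were called. DESeq2 also called 0. Sxl was lower in all CG7818 libraries than in all Ime4 libraries (−0.39, SE 0.132, adjusted p = 0.187), and 24.2% of all genes had no overlap there. The interaction of Ime4 and CG7818, which asks whether the double depletion departs from the sum of the single ones, called 0 members by edgeR and by DESeq2, had 0 with an unadjusted p under 0.05, and called 0.108% of all genes. Its value for Sxl was 0.37 with a 95% confidence interval of −0.01 to 0.75.

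Between the readers, tra and tra2 differed in opposite directions. In YT521 against CG6422, 2 members were called where 12.9% of all genes were. YT521 libraries of tra2 stood at 47.4, 44.9 and 44.2 CPM against 54.3, 50.8 and 50.1 CPM in CG6422, without overlap (−0.19, SE 0.058, adjusted p = 0.0359). For tra, YT521 libraries stood at 14.4, 18.4 and 17.3 CPM against 13.5, 15.3 and 12.8 CPM, with overlap through YT521 replicate 1 (0.27, SE 0.087, adjusted p = 0.0467). Both calls were weak. Without YT521 replicate 2, a library low in mt:lrRNA, the adjusted p was 0.213 for tra and 0.113 for tra2. Leaving out CG6422 replicate 1 gave 0.118 and 0.135, CG6422 replicate 3 gave 0.191 and 0.0503, and YT521 replicate 3 gave 0.142 and 0.135. Without CG6422 replicate 2 that of tra2 was 0.0656. Sxl (−0.37, adjusted p = 0.064) and Unr (0.30, adjusted p = 0.121) did not overlap between the readers but did not pass, and 28.4% of all genes had no overlap in this comparison.

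Compared per kilobase of exon, the members kept a clear order of transcript level in control cells. The level was 72.9 ± 4.0 CPM per kilobase for snf, 26.6 ± 1.4 for tra2, 18.97 ± 0.51 for tra, 15.3 ± 1.7 for Unr, 3.68 ± 0.14 for fru and 1.24 ± 0.037 for Sxl (SD, n = 3). Among 8183 tested genes with a known exon length these were at percentiles 86.4, 65.5, 56.3, 50.96, 25.4 and 15.3. The splicing factor snf thus stood high and the switch gene Sxl low, and dsx lay under all of them at 0.0153 CPM per kilobase. Neighbours in this order did not overlap in the control libraries. The pair tra and Unr overlapped in the YT521 depletion, where tra libraries were at 16.7 to 21.4 and Unr libraries at 18.02 to 20.9 CPM per kilobase, and in the CG6422 depletion, at 14.9 to 17.7 and 13.1 to 17.4. Exon lengths are those of the merged annotated exons, so a gene whose long exons are little used in these cells is placed too low.

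**Figure D3:**
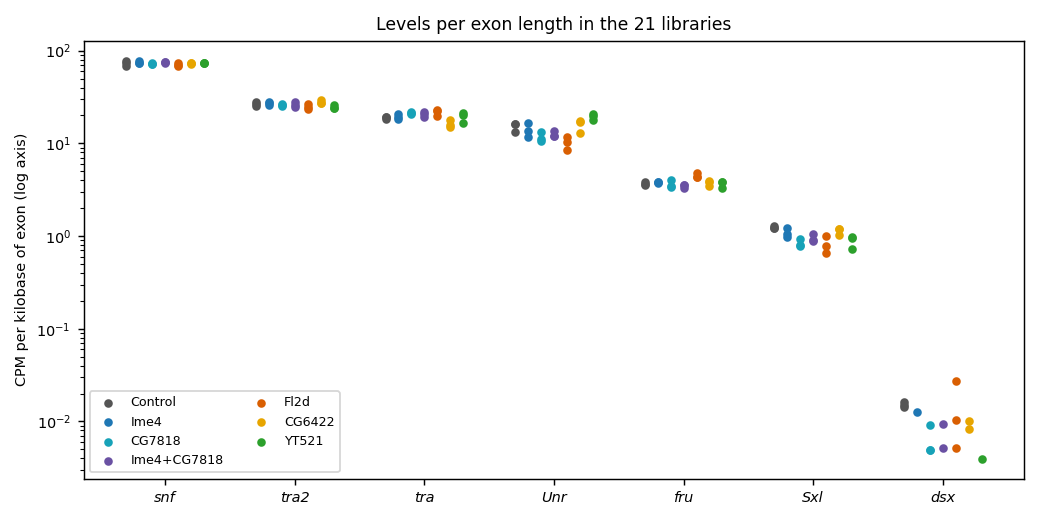
Level of the 7 genes in CPM per kilobase of merged exon on a log axis, with 1 point per library and 1 colour per group. The order snf, tra2, tra, Unr, fru, Sxl, dsx holds in the control libraries, and the 6 libraries with 0 reads at dsx cannot be drawn on this axis.

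Other genes followed some of the members closely over the 7 group means. Likeness was measured as the root mean square (RMS) difference of centred log2 CPM, over candidate genes whose mean reached 10 CPM. Nearest to Unr were CG6357, at an RMS difference of 0.053, Cys, at 0.055, and Dbp80, at 0.11, where the median of 6033 candidates was 0.30. These genes were chosen for their group means, so their values are a description. In Fl2d the log2 fold change was −0.57 for CG6357, −0.41 for Cys, a cystatin-like protease inhibitor, and −0.56 for Dbp80, and in YT521 it was 0.38, 0.38 and 0.09. Nearest to fru were CCT1, a chaperonin subunit, at 0.016, lig at 0.017 and feo at 0.022, against a median of 0.13. Their log2 fold changes in Fl2d were 0.28, 0.25 and 0.34, beside 0.28 for fru.

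The pattern of Sxl was less closely matched. Its nearest genes were FBgn0058178, at 0.085, Stlk, at 0.10, and lncRNA:CR44417, at 0.10, against a median of 0.24. Nearest to tra were Mical, at 0.041, Chc and CG34404, both at 0.047. Nearest to tra2 were CG7943, CG15387 and Bmcp, and to snf Tsc1, inc and omd, all within 0.022, which says little since these members hardly moved.

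**Figure D4:**
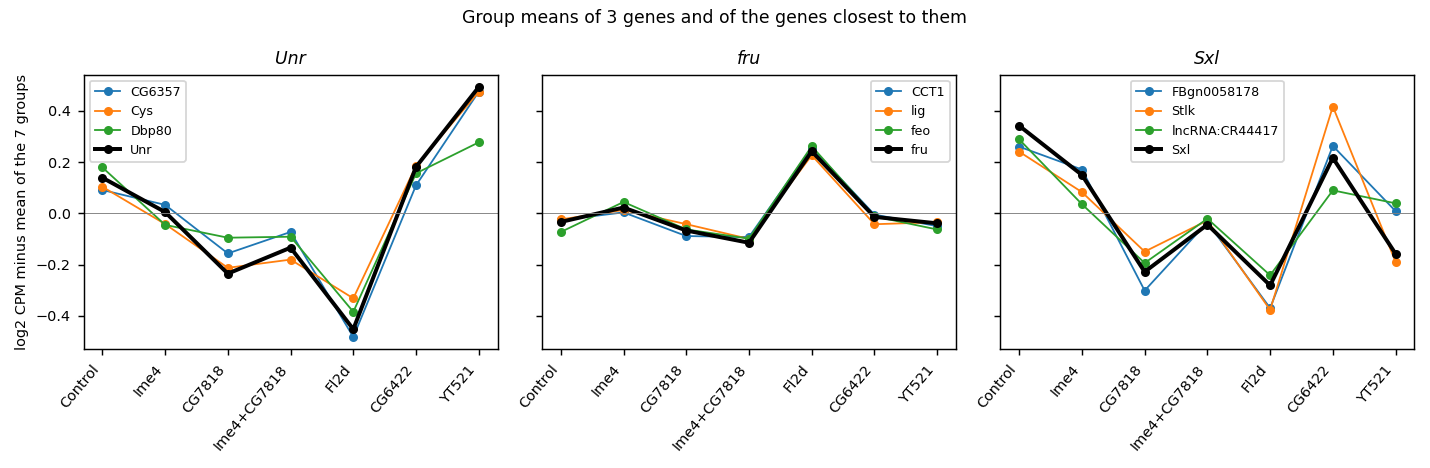
Group means of log2 CPM, centred on the mean of the 7 groups, for Unr, fru and Sxl (black) and the 3 genes nearest to each. Unr and its neighbours are lowest in Fl2d and highest in YT521, and fru and its neighbours stand out in Fl2d.

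Some genes listed for the counting of X chromosomes and Sxl transcription fell in the Fl2d and CG6422 depletions. Of 12 listed, 6 were tested. Overlaps of these and the other listed genes with neighbouring genes were not computed, so the doubt about strand applies to their values too. In Fl2d, where 41.3% of all genes were called and 19.9% were lower, 1 was higher and 4 were lower (median log2 fold change −0.21, against 0.01 for all genes). In CG6422, where 19.1% were called, 3 were lower (median −0.18), and in the other depletions at most 1 was called. The repressor hairy (hry) went from 88.4 ± 7.0 CPM in the control to 49.8 ± 9.1 CPM in Fl2d (−0.83, adjusted p = 1.21e-07). The kinase hop fell there (−0.30, adjusted p = 0.00255), and its transcription factor Stat92E fell in CG6422 (−0.31, adjusted p = 0.00552). The corepressor gro rose in Fl2d (0.20, adjusted p = 0.0014). Of 10 plasmatocyte markers 8 were tested, of which 2 were called lower in Fl2d (median −0.02) and 4 in CG6422 (median −0.28). Their summed level was 675 to 733 CPM in the control, 658 to 707 CPM in Fl2d and 607 to 669 CPM in CG6422, and their part in the result was not tested. The count of 4 lower in Fl2d was 2 to 4 when any single library was left out and 3 without both libraries low in mt:lrRNA. The X-linked counting elements sisA, sc, run and upd1 were under the filter on low counts, as was the listed gene dpn.

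All 18 listed cofactors of Sxl splicing were tested, a list that holds the depleted writer genes and YT521 itself. Called higher and lower were 2 and 1 in Ime4, 1 and 1 in CG7818, 1 and 2 in the double depletion, 2 and 4 in Fl2d, 1 and 1 in CG6422 and 2 and 1 in YT521, with each depleted gene of the list among the lower ones. In Fl2d that is 6 of 18, against 41.3% of all genes, and the shares of all genes in the other depletions were 3.72%, 2.32%, 11.4%, 19.1% and 6.52% in the same order. When any single library was left out, the counts in Fl2d were 2 to 5 higher and 2 to 4 lower, in CG6422 0 to 1 higher and 0 to 2 lower, in YT521 0 to 1 higher and in Ime4 1 to 2 higher. Without both libraries low in mt:lrRNA they were 1 and 4 in Fl2d and 2 and 2 in YT521. The transcript of fl(2)d itself rose from 125 ± 1.6 CPM in the control to 180 ± 12 CPM in Ime4, 178 ± 4.7 CPM in CG7818 and 176 ± 4.3 CPM in the double depletion (0.52, 0.50 and 0.49, adjusted p = 3.78e-05, 6.83e-05 and 3.31e-05). In YT521 fl(2)d also rose, to 151 ± 8.7 CPM (0.27, adjusted p = 0.0139), a call that failed in 4 of 13 alternatives. The mRNA of how, an RNA-binding protein that is also a partner of Sxl at msl-2, fell in Fl2d (−0.55, adjusted p = 0.00109).

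Of 7 listed partners of Sxl in translation and target mRNAs, 6 were tested and 4 were lower in Fl2d (median −0.20), where 19.9% of all genes were lower. In CG7818, the double depletion and YT521 1 was lower each, where 2.32%, 11.4% and 6.52% of all genes were called in either direction. The receptor gene N (Notch), whose mRNA Sxl is known to repress in females, went from 131 ± 3.3 CPM in the control to 105 ± 3.1 CPM in YT521 (−0.32, adjusted p = 2.52e-04), a call that held in all 13 alternatives. It was also the gene called in CG7818 and in the double depletion, where it failed in 3 and 4 of 12 alternatives. In Fl2d N was among the lower genes too (−0.24, adjusted p = 4.64e-04), a call that failed in 1 of 13 alternatives. The main translational target, msl-2, went from 46.1 ± 2.4 to 41.3 ± 1.4 CPM in Fl2d (−0.16, adjusted p = 0.0264). That call failed in 6 of 13 alternatives, among them leaving out Fl2d replicate 1 (adjusted p = 0.0874) or control replicate 1 (0.136). The count of 4 in Fl2d was 2 to 4 when any single library was left out and 3 without both libraries low in mt:lrRNA.

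Of 10 listed genes of tra- and tra2-dependent splicing, 8 were tested and at most 2 were lower and 1 higher in any depletion. Those 3 were in CG6422, where 19.1% of all genes were called, and in Fl2d, where 41.3% were, 2 were called. When any single library was left out, the counts in CG6422 were 0 higher and 1 to 2 lower. The LAMMER kinase gene Doa, whose product phosphorylates SR proteins, fell from 46.8 ± 4.1 to 36.2 ± 5.1 CPM in Fl2d (−0.38, adjusted p = 7.32e-04). It also fell in CG6422 (−0.40, adjusted p = 0.00185), a call lost under the exon length correction (adjusted p = 0.0863). In YT521 Doa fell as well (−0.30, adjusted p = 0.0248), a call that failed in 4 of 13 alternatives.

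Of 15 listed partners and targets of dsx and fru, 9 were tested, and 2 were higher and 1 lower in Fl2d, against 1 higher each in CG7818 and the double depletion. All genes were called at 41.3% in Fl2d, 2.32% in CG7818 and 11.4% in the double depletion, so the 3 of 9 in Fl2d were under the background. The lower one, CtBP, was not called without Fl2d replicate 1 (adjusted p = 0.064), without control replicate 1 (0.0588) or under the exon length correction (0.0986). The call in CG7818, of bab1, failed in 7 of 12 alternatives, among them leaving out any single library. The gene bab1, a transcription factor that dsx controls in the fly abdomen, rose from 1.29 ± 0.15 CPM to 5.40 ± 0.55 CPM in Fl2d (2.08, adjusted p = 6.66e-09). In the double depletion bab1 also rose, to 2.398 ± 0.16 CPM (0.91, adjusted p = 0.0037). The yolk protein gene Yp3 stood at 0.227 ± 0.19 CPM in the control. It rose to 0.730 ± 0.032 CPM in Fl2d (1.68, adjusted p = 0.00237), still a low level. Yp3 met the filter on low counts at least in part through depletion libraries where it was higher. Its call is thus partly set by the filter, and its values are a description. The medians of this list lay between −0.10 and 0.05 in the 6 depletions.

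**Figure D5:**
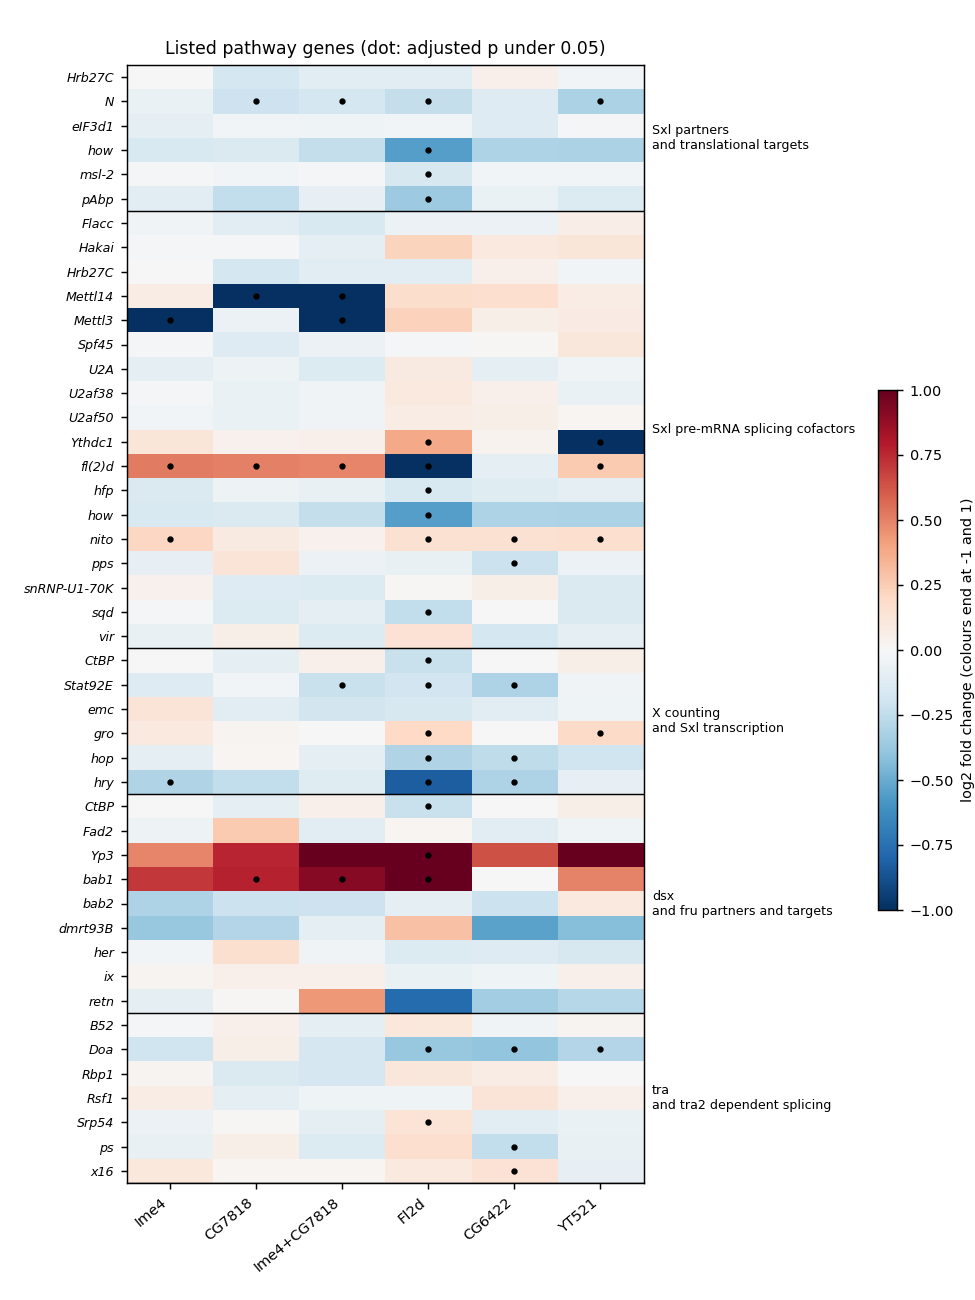
Log2 fold change against the control of genes of 5 pathway lists that were tested and are reported here in the 6 depletions, in colour (scale ends at −1 and 1), with a dot where the adjusted p was under 0.05. The Fl2d column holds the most dots, and genes on 2 lists are drawn under both.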

How the data were processed

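Poly(A) RNA-seq of 21 libraries was analysed from the deposited raw read counts per gene, 1 table per library. The submitters' processing notes name STAR 2.4.0h, HTSeq 0.6.1, CASAVA 1.8.4, DESeq2 1.6.3 and the build BDGP6, and no source used here gives the strand setting. The 5 lines that name no gene (11.0% to 18.7% of all lines' reads for those aligned to several places) were left out. Groups follow the titles, since the genotype field of the double depletion names Ime4 alone. No pair of libraries was identical. All libraries entered 1 fit in edgeR 4.0.16 (R 4.3.3) with TMM scaling, filterByExpr with a minimum count of 10 and 1 mean per group. The code was also run on counts simulated from means and spreads of this same fit. Such a run checks the code and cannot show that the model suits these data. Benjamini-Hochberg adjustment ran over 8360 genes and CPM used the scaled library sizes. Loci and exon lengths came from Ensembl release 115 (BDGP6.54), later than the models counted. Intervals for dsx cover counting error only, as reads carried no molecular identifiers.

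The members and gene lists were chosen with earlier results of these data known. Named genes are the 7 members, up to 4 called genes of each list with the smallest p (part of them is given), and the 3 genes nearest in pattern to each tested member. The list genes da, nos, SF2, SRPK and lola matched no gene ID in the count tables. A further listed gene counts in its list and is not reported here. Alternatives were DESeq2 1.42.0, its size factors, no filter, a replicate block, the compared groups alone, each library left out, both libraries low in mt:lrRNA left out and, added after the data were seen, an exon length correction.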

Additional observations from a re-analysis of the deposited data

How the results depend on the processing

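Of 142 alternatives to the 11 member changes called, 121 kept the call and 21 lost it, and 0 changed sign. Of 794 alternatives to the 61 member values not called, 24 passed and 57 changed sign. With no filter on low counts 2 members were called in CG7818, in the double depletion, in YT521 and in Fl2d against the double depletion. With the groups compared fitted alone the numbers were 2 in CG7818, in the double depletion and in YT521, and 0 in YT521 against CG6422, which also had 0 without both libraries low in mt:lrRNA. DESeq2 called 1 in the double depletion (Sxl). The exon length correction called 2 in CG7818, in CG6422 and in YT521, and 4 in YT521 against CG6422. The cause of these moves was not tested. Leaving out 1 library gave 0 to 1 members called in CG7818, the double depletion, CG6422 and YT521, 0 to 2 in YT521 against CG6422, 1 to 3 in Fl2d against the double depletion, 3 in Fl2d, 2 in Fl2d against YT521 and 1 in YT521 against the double depletion.

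Whether the replicate numbers pair the libraries cannot be decided from correlations between libraries, with 3 libraries per group. Of 18 same-numbered pairs with the control, the deviations from the group means correlated at −0.23 to 0.17, and 4 pairs were over 0.1. The libraries that correlated best with their own number were 5, all of them replicate 1 (Ime4, CG7818, the double depletion, CG6422 and YT521). With the replicate block 1 member was called in the double depletion (Sxl, adjusted p = 0.0447) and 1 in CG6422 (tra, adjusted p = 0.0341).

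Leaving out 1 library moved counts of called genes over the whole table too, and with them the background shares. They were 135 to 193 in Ime4 (from 311), 93 to 122 in CG7818 (from 194), 463 to 753 in the double depletion, 844 to 1423 in CG6422 (from 1595), 243 to 492 in YT521 (from 545), 16 to 32 in CG7818 against Ime4, 677 to 1017 in YT521 against CG6422, 536 to 684 in YT521 against the double depletion (from 897) and 1 to 12 in the interaction. In Fl2d they were 2791 to 3457. Among the other alternatives, counts that moved by more than 1.5 times were, with no filter, 176 (from 42) in CG7818 against Ime4 and 46 (from 9) in the interaction. With the replicate block CG7818 against Ime4 gave 64, and with DESeq2 it gave 120 and the interaction 29. With the compared groups alone Ime4 gave 614 (from 311), the double depletion 1634 (from 955), Fl2d 2224 (from 3451), CG7818 against Ime4 227, YT521 against CG6422 684 (from 1077), Fl2d against the double depletion 1944 (from 3083), Fl2d against YT521 1881 (from 3263) and the interaction 47. Depth limits dsx most, with at most 5 reads in a library.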
